A study of Mus musculus with 160 samples.

Results

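Brown fat of A/J mice was set against brown fat of C57BL/6J, DBA/2J and SJL mice, 3 other inbred strains, to ask which transcripts mark this depot in A/J. The A/J libraries are 8 of the 160 in the series, and they were compared with 24 brown fat libraries, 8 from each other strain; every library was assigned by the tissue, strain and mouse number in its label. The series holds bulk RNA-seq of 5 tissues (liver, quadriceps muscle, and brown, subcutaneous and visceral fat) from male mice. The mice left a chow diet at 12 weeks of age, ate 1 of 4 diets modelled on human eating patterns (American, Mediterranean, Vegetarian or Vegan, matched in energy and macronutrients) for 6 weeks, and were 18 weeks old at harvest. Each strain and diet gave 2 mice per tissue, so the A/J group holds mice 17 and 18 on the American diet, 22 and 24 on the Mediterranean, 25 and 27 on the Vegetarian and 30 and 32 on the Vegan diet, and each other strain has the same layout. The labels name no transgene or engineered allele, all groups share the move from chow to a test diet, and no chow-fed group was analysed here.

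Brown fat burns fatty acids and glucose to make heat. Noradrenaline from sympathetic nerves acts on adrenergic receptors of the fat cell, cyclic AMP rises, lipolysis releases fatty acids, and uncoupling protein 1 (Ucp1) lets protons re-enter the mitochondrial matrix without ATP synthesis. The same signal induces Dio2, the deiodinase that turns thyroxine into active triiodothyronine, and Ppargc1a, a coactivator that drives mitochondrial genes.

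The labelled tissue was checked first. Ucp1 stood at 5850 CPM (read counts scaled to the library total, without further scaling) in the lowest A/J brown fat library, at a median of 8200 and at 9400 in the highest, against 2370, 7280 and 10400 CPM in the other strains. Median Ucp1 was at most 46.7 CPM in any other tissue of either group. Library totals were 18.0 M to 22.6 M counts in A/J (median 20.6 M) and 19.2 M to 28.3 M counts in the other strains (median 22.1 M). Alb, made by liver, was at 10.3 to 8950 CPM in A/J libraries and at 1.71 to 18200 CPM in the others, and it passed 10% of the mean liver level in A/J mouse 17 and in mice 42, 49 and 57 of the other strains. Cd79a, a B cell receptor subunit, was at 0.389 to 1.78 CPM in A/J and at 0.548 to 18.7 CPM in the others, and it passed 4 times the brown fat median in mice 1, 33 and 50, none of them A/J.

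Several A/J libraries stood apart from the rest of their group. Mouse 18 had the highest level of most nuclear-coded respiratory chain genes, with 908 CPM of Cox6c against at most 676 CPM in the other A/J libraries, and the lowest Ppargc1b, with 32.5 CPM against 76.4 CPM or more. Mouse 32 had the highest Ppargc1a (321 CPM, next 110 CPM) and the highest heat shock gene Hspa1b (219 CPM, next 93.6 CPM). Mouse 27 lacked the A/J level of Slc28a1, and the subcutaneous library of mouse 24 was low in Hoxc10, as described with those results. Several named results with 1 of these libraries far out are given with and without it, and others only with it.

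With diet as a covariate, 7077 of 20210 genes tested differed between A/J brown fat and the mean of the other 3 strains (35.0%, adjusted p under 0.05 in edgeR's quasi-likelihood test). Of these, 3421 were higher in A/J (16.9%) and 3656 lower (18.1%). A stricter class, called apart below, needed the same direction and a call against each of the 3 strains alone: 1688 genes met it (8.35%), 743 of them higher (3.68%) and 945 lower (4.68%). In 196 genes (0.97%) the 8 A/J libraries did not overlap the 24 others. Against single strains, 5525 genes differed from C57BL/6J (27.3%), 7436 from DBA/2J (36.8%) and 5275 from SJL (26.1%). The 3 comparisons share the A/J libraries, and the comparison with C57BL/6J also crosses a change in alignment settings, since the authors relaxed the mismatch penalty for the other strains. Differences below are log2 values of A/J minus the mean of the other strains with their standard error (SE), and levels are CPM after trimmed mean (TMM) scaling.

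Dio2 (chromosome 12, 90691322-90705819, minus strand, GRCm39) was the heat-production gene that stood furthest from the other strains. It had 60.7 CPM in the lowest A/J library, a median of 198 and 516 in the highest, against 9.22, 32.3 and 121 CPM in the other strains. All but the 3 lowest A/J libraries lay above every library of the other strains, and the groups overlapped below 121 CPM. The difference was 2.67 (SE 0.311, adjusted p = 2.59e-07), and it was apart: 2.19 against C57BL/6J, 1.93 against DBA/2J and 3.88 against SJL. Leaving out mouse 32 gave 2.26 (adjusted p = 6.04e-07). In the single diets the Dio2 difference was 1.52 on American, 2.58 on Mediterranean, 2.24 on Vegetarian and 3.99 on Vegan food, and edgeR's quasi-likelihood test that the values are equal gave an adjusted p = 0.442.

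Ppargc1a ran at 43.1, 88.8 and 321 CPM (lowest, median, highest) in A/J, against 24.4, 39.0 and 69.9 CPM in the other strains. Its difference was 1.26 (SE 0.22, adjusted p = 6.76e-05), and 0.87 (adjusted p = 0.000119) without mouse 32. Ppargc1b, the related coactivator PGC-1β, differed by 0.61 (SE 0.118, adjusted p = 0.000189), and by 0.73 without mouse 18. Otop1, a proton channel gene used as a brown fat marker, differed by 0.41 (SE 0.0807, adjusted p = 0.000253), and by 0.32 without mouse 18, and was apart. Ucp1 itself averaged 8180 ± 1070 CPM in A/J (SD, n = 8) and 6580 ± 1950 CPM in the other strains (SD, n = 24). The Ucp1 difference was 0.36 (SE 0.122, adjusted p = 0.0206), but the level was 4840 CPM in C57BL/6J, 7340 CPM in DBA/2J and 7540 CPM in SJL, and the call was lost without C57BL/6J (0.14, adjusted p = 0.283) without A/J mouse 18 (0.29, adjusted p = 0.0764) and with limma on log2(TPM + 1), where TPM is a length-scaled share of transcripts (0.27, adjusted p = 0.0954).

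**Figure D1:**
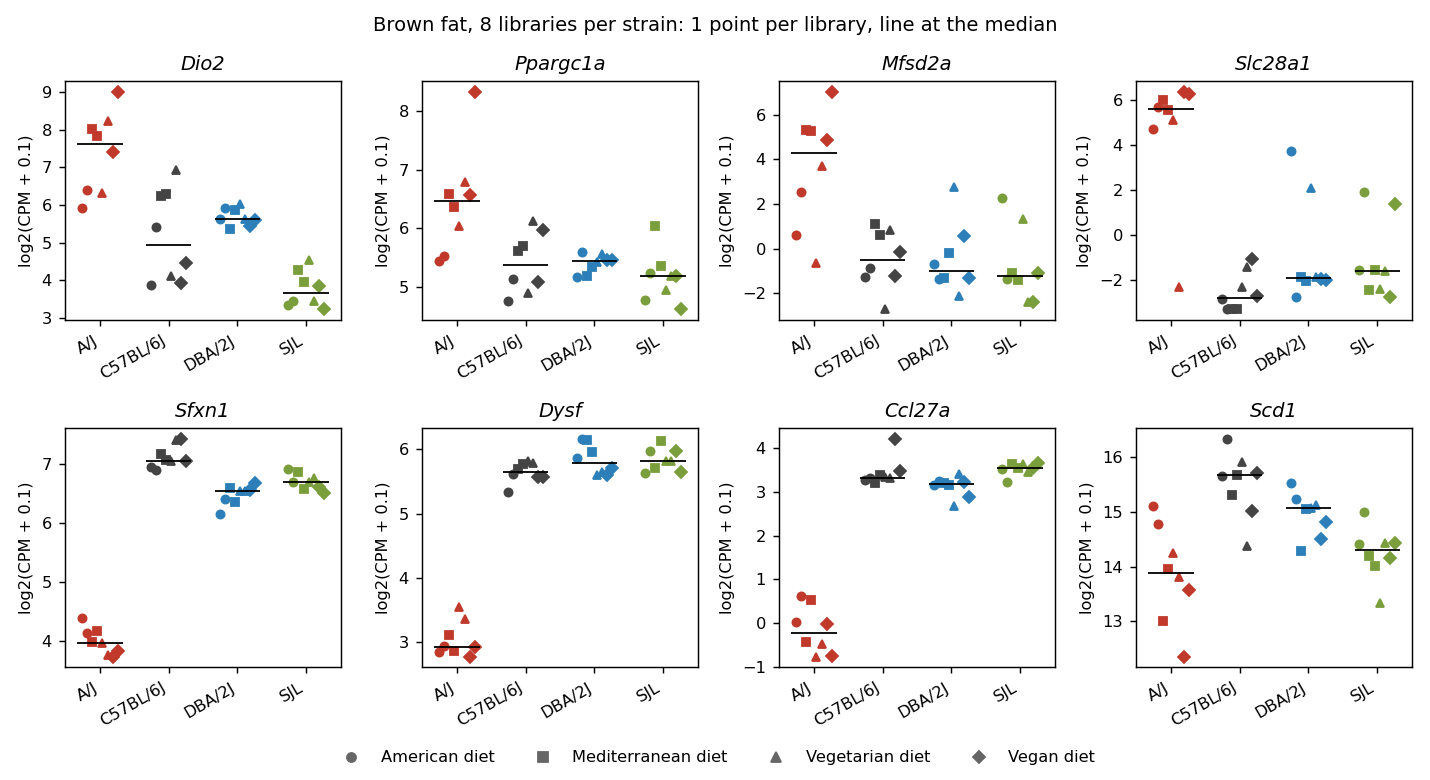
Level of 8 genes in each of the 32 brown fat libraries, as log2(CPM + 0.1), with A/J on the left of each panel and a line at each strain's median; marker shapes give the diet. Dio2, Ppargc1a, Mfsd2a and Slc28a1 sit higher in A/J with overlap, Sfxn1, Dysf and Ccl27a lie below every library of the other strains, and Scd1 is lower with overlap.

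Across the 28 brown fat identity and heat production genes tested, 11 were higher in A/J and 2 were lower, against 16.9% and 18.1% of all genes, with a median difference of 0.15 beside 0.00 over all genes tested. The shares over all genes, 16.9% higher and 18.1% lower, are the background of each list count that follows from edgeR over all brown fat libraries. With limma on log2(TPM + 1), 1274 of 16480 genes were higher and 4132 lower (median −0.08). The limma list counts that follow have that background. Without DBA/2J, 2594 of 19693 genes were higher and 2997 lower, and without SJL 3341 and 3479 of 19790. Without C57BL/6J, 3200 of 19865 genes were higher and 3603 lower. List counts that leave out a strain have these backgrounds. The calls were smaller away from Dio2 and the coactivators. Kcnk3, a potassium channel, and Esrra, a nuclear receptor partner of PGC-1α, were higher by 0.55 and 0.29. Cidea, a lipid droplet protein, was lower, at 1300 ± 251 CPM in A/J and 1590 ± 233 CPM in the other strains (−0.30, adjusted p = 0.00955), but not called without C57BL/6J (−0.23, adjusted p = 0.0943). The developmental factor Zic1 was also lower (−0.46). The count of higher genes was 9 without mouse 18 and 7 with limma on log2(TPM + 1).

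In adrenergic signalling, 7 of 18 genes were higher and 2 lower (median 0.08), against 16.9% and 18.1% of all genes; with limma on TPM 4 were higher and 2 lower (median −0.03). Beside the alpha receptor gene Adra1a (0.45) the called genes belong to the cyclic AMP machinery, and none of the 3 beta-adrenergic receptor genes was among them. Adcy3, an adenylyl cyclase, had 99.0, 154 and 325 CPM in A/J against 55.0, 84.5 and 136 CPM in the other strains, a difference of 1.02 (SE 0.139, adjusted p = 1.69e-06). Adcy5, a second cyclase, went the other way, with 4.79, 6.2 and 8.73 CPM in A/J against 7.91, 12.4 and 22.0 CPM (−0.95, SE 0.135, adjusted p = 2.68e-06). Pde4d, a phosphodiesterase that breaks cyclic AMP down, was higher by 0.96 (SE 0.124, adjusted p = 6.52e-07). All 3 were apart from each of the other strains.

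Fuel genes split by pathway. Fatty acid oxidation had 7 of 24 genes higher and none lower (median 0.13), with Eci2, an enoyl-CoA isomerase, at 0.29 and Pdk4, which brakes pyruvate oxidation, at 0.66. Without mouse 18, 4 were higher (median 0.06), and with limma on TPM 4 were higher and 3 lower (median 0.01). Fat synthesis had 10 of 20 genes lower and 3 higher (median −0.36). Scd1, the delta-9 desaturase, had 5250, 15200 and 35300 CPM in A/J against 10400, 32900 and 82600 CPM in the other strains (−0.99, SE 0.202, adjusted p = 0.000342). Slc25a1, the mitochondrial citrate carrier, had 224, 401 and 696 CPM against 388, 750 and 1310 CPM (−0.86, SE 0.195, adjusted p = 0.00102) and was the member that was apart. Acly and Acss2, which make cytosolic acetyl-CoA, were lower (−0.84 and −0.79); Acly was named after its values were seen. The 3 higher members, Gpam, Dgat1 and Dgat2, act in triglyceride assembly (0.43, 0.26 and 0.27). Without DBA/2J 12 fat synthesis genes were lower and 1 higher, without SJL 8 and 1, and with limma on TPM 12 were lower and none higher.

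Cholesterol synthesis had 10 of 24 genes lower and none higher (median −0.34), 4 of them apart, among them Sc5d (−0.98) and Mvd (−0.73). In subcutaneous fat 12 of 24 were lower and none higher (median −0.58, against 7.69% of all genes lower). In visceral fat 8 of 24 were lower (median −0.64, against 4.82%). Liver had 5 higher and 1 lower, against 14.3% and 13.6% of all genes. Quadriceps muscle had none called, against 5.47% of all genes higher and 5.79% lower. A test of the A/J difference in brown fat minus that in subcutaneous fat called 1 member higher and none lower. Of all genes, that test called 6.49% higher and 11.6% lower. In brown fat 7 were lower without SJL or without A/J mouse 22, 30 or 32, and 14 with limma on TPM. In glucose uptake and glycolysis 8 of 20 were lower and 1 higher (median −0.15). The higher one was Slc2a1, the GLUT1 transporter, at 0.62 (SE 0.0813, adjusted p = 9.12e-07). Eno1, enolase, was lower (−0.62), a call lost without C57BL/6J (−0.41, adjusted p = 0.0513); Gapdh was too (−0.88), but it has many processed copies in the genome and its value is uncertain under fractional read assignment. Lipolysis and lipid droplet genes gave 6 higher and 2 lower of 20 (median 0.14), with Fitm2, a droplet budding factor, at 0.38 and Lpl, lipoprotein lipase, at 0.36. With limma on TPM this list turned to 2 higher and 3 lower (median 0.00), and without DBA/2J it held 2 higher and 1 lower. Lpl was at −0.08 in the Vegetarian libraries alone, and its call was lost without DBA/2J (0.27, adjusted p = 0.0823) and with limma on TPM (0.24, adjusted p = 0.0848).

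Respiratory chain genes differed by small amounts, and the counts rested in part on a single library. Of the 30 nuclear-coded genes, 7 were higher (median 0.12), a share near the 16.9% of all genes, with Atp5pb at 0.26 (SE 0.0567, adjusted p = 0.000572) and Cox6c at 0.31 (SE 0.0756, adjusted p = 0.0018); without mouse 18 they stood at 0.21 and 0.23. Of the 13 mitochondrially coded mRNAs, 5 were higher (median 0.45), with mt-Co1 at 75800 ± 5390 CPM in A/J and 60700 ± 11000 CPM in the other strains (0.34, adjusted p = 0.000489). Without mouse 18 the nuclear list held 2 higher and 2 lower genes (median 0.03) and the mitochondrial list 3 higher (median 0.25). Without mouse 25 the counts were 4 and 3 higher, and without the libraries high in Cd79a the nuclear count was 2. Without DBA/2J the counts were 2 and 3 higher, and without SJL 5 and 2. DESeq2 called 11 and 8 higher. With limma on TPM the nuclear list turned to 2 higher and 6 lower (median −0.01).

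**Figure D2:**
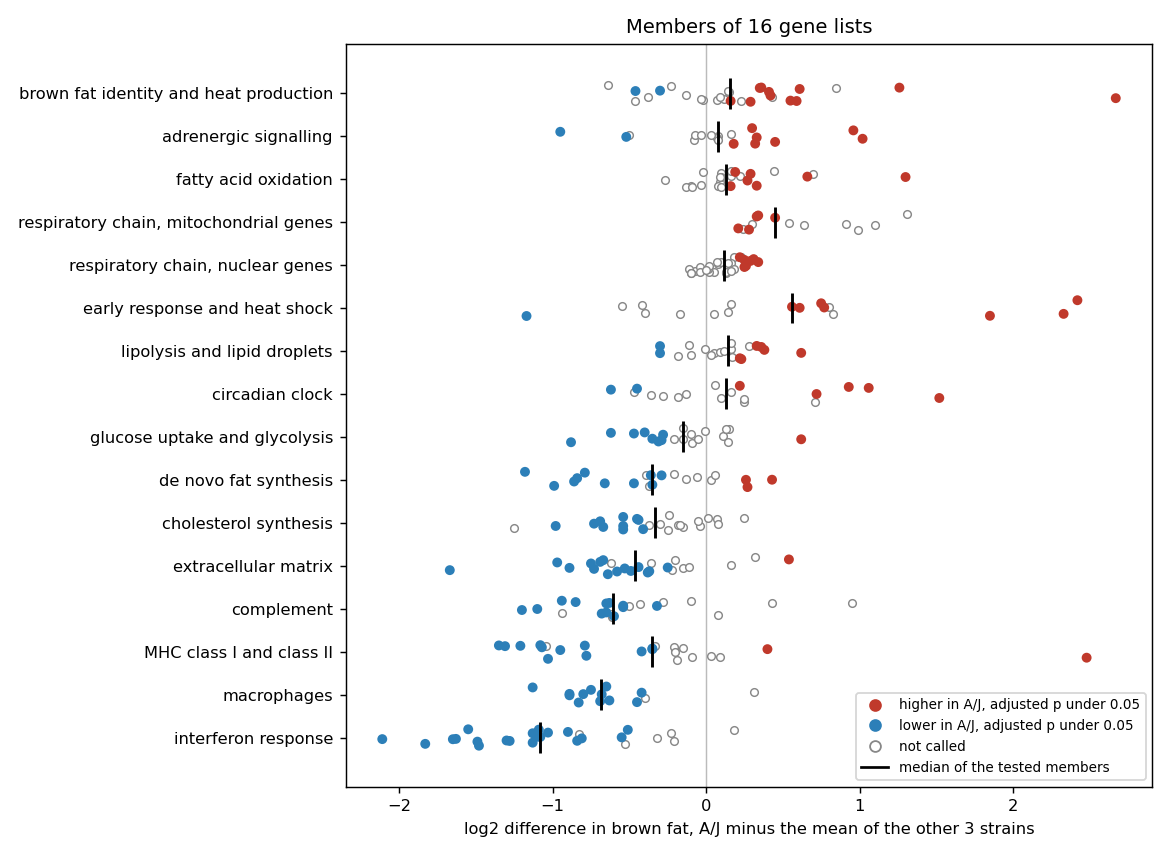
Difference of A/J from the mean of the other strains (log2) for each tested member of 16 gene lists, 1 point per gene: red for called higher, blue for called lower, open for not called, with a black bar at the list median. The interferon list sits to the left of 0 as a body, heat-production genes spread to the right with Dio2 at 2.67, and the medians of the other lists lie between −0.69 and 0.56.

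In the plot of the 16 lists the interferon response genes have the lowest median. Type I interferon switches these genes on in nearly all cells to block viruses. Of 26 tested, 20 were lower in A/J and none higher (median −1.08), against 18.1% of all genes lower, and 13 of the 20 were apart, against 4.68%. Ifit3, which binds viral RNA together with its relatives, had 0.882, 1.30 and 2.55 CPM in A/J against 3.71, 5.86 and 12.6 CPM in the other strains (−2.11, SE 0.197, adjusted p = 1.75e-09). Ifit1, which recognises unmethylated RNA caps, had 1.22, 1.46 and 1.73 CPM in A/J against 3.07, 3.89 and 9.71 CPM (−1.63, SE 0.150, adjusted p = 1.39e-09). Irf7, a transcription factor that amplifies the response, had 3.41, 4.18 and 5.88 CPM in A/J against 6.61, 9.95 and 27.3 CPM (−1.48, SE 0.157, adjusted p = 2.23e-08). In these 3 genes every A/J library lay below every library of the other strains, as 0.623% of all genes did; 0.346% lay wholly above.

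Usp18, a brake on interferon receptor signalling, was at −1.55 (adjusted p = 1.22e-07), and Xaf1, a pro-apoptotic factor, was at −1.09 (adjusted p = 6.12e-08; −1.24 without mouse 25, its highest A/J library). Isg15, a ubiquitin-like modifier, was at −1.08 and Oas1a, a sensor of double-stranded RNA, at −1.28; both were named after their values were seen. Ifit3 and Ifit3b are near-identical copies, so their separate values are uncertain. The Ifit genes lie together in the 2 Mb window at chromosome 19, 34000001-36000000, where 5 of 14 genes tested were apart (Fas, Ifit1, Ifit2, Ifit3b, Ifit3), all lower in A/J. The count of lower genes was between 17 and 24 under the alternatives whose list counts were taken; leaving out SJL, where Irf7 averaged 18.1 CPM against 11.1 CPM in DBA/2J and 8.78 CPM in C57BL/6J, gave 17 lower and 1 higher (median −0.84). Without the libraries of mice 1, 33 and 50, high in Cd79a, 20 genes were lower (median −1.01).

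The start regions of 5 of these genes are shown because interferon is known to act through a short element near the start of many of its targets. Each run is the 150 bases before the RefSeq start, 5′ to 3′ on the gene's strand, taken from a table on GRCm38.p6 and placed by exact match on GRCm39; capitals mark GAAA, any 2 bases and GAAA again, searched on either strand (TTTC, any 2 bases, TTTC on the other), a core of the interferon-stimulated response element.
Ifit1 (chr19:34618139-34618288, plus strand): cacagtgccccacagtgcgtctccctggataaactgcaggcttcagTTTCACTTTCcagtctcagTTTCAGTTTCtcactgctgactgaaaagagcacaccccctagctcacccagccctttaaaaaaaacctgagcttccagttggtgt
Ifit3 (chr19:34560779-34560928, plus strand): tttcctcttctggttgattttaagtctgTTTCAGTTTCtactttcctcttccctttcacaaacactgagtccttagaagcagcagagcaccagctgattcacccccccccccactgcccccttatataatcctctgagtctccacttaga
Irf7 (chr7:140846338-140846487, minus strand): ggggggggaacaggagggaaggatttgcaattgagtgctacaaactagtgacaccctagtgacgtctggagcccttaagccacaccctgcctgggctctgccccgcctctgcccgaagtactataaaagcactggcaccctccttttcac
Isg15 (chr4:156285276-156285425, minus strand): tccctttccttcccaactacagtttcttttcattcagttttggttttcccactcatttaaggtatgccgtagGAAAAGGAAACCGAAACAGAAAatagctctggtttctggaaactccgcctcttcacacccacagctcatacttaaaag
Oas1a (chr5:121045589-121045738, minus strand): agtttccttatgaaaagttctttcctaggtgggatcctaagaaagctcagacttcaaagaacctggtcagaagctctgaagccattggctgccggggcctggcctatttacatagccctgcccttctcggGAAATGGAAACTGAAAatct
Ifit1 holds 2 matches, whose first bases lie at −104 and −85 from the start, Ifit3 holds 1 at −122, Isg15 has 3 that overlap between −78 and −66, and Oas1a has 2 that overlap at −20 and −14. The Irf7 window holds none, which says only that these letters are not in it. Of the 18 interferon list genes with a window in the table, 9 held the pattern (50.0%), against 226 of 12681 genes tested in brown fat (1.78%) and 521 of all 32851 windows (1.59%). These are reference sequences, and A/J sequence was not examined.

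**Figure D3:**
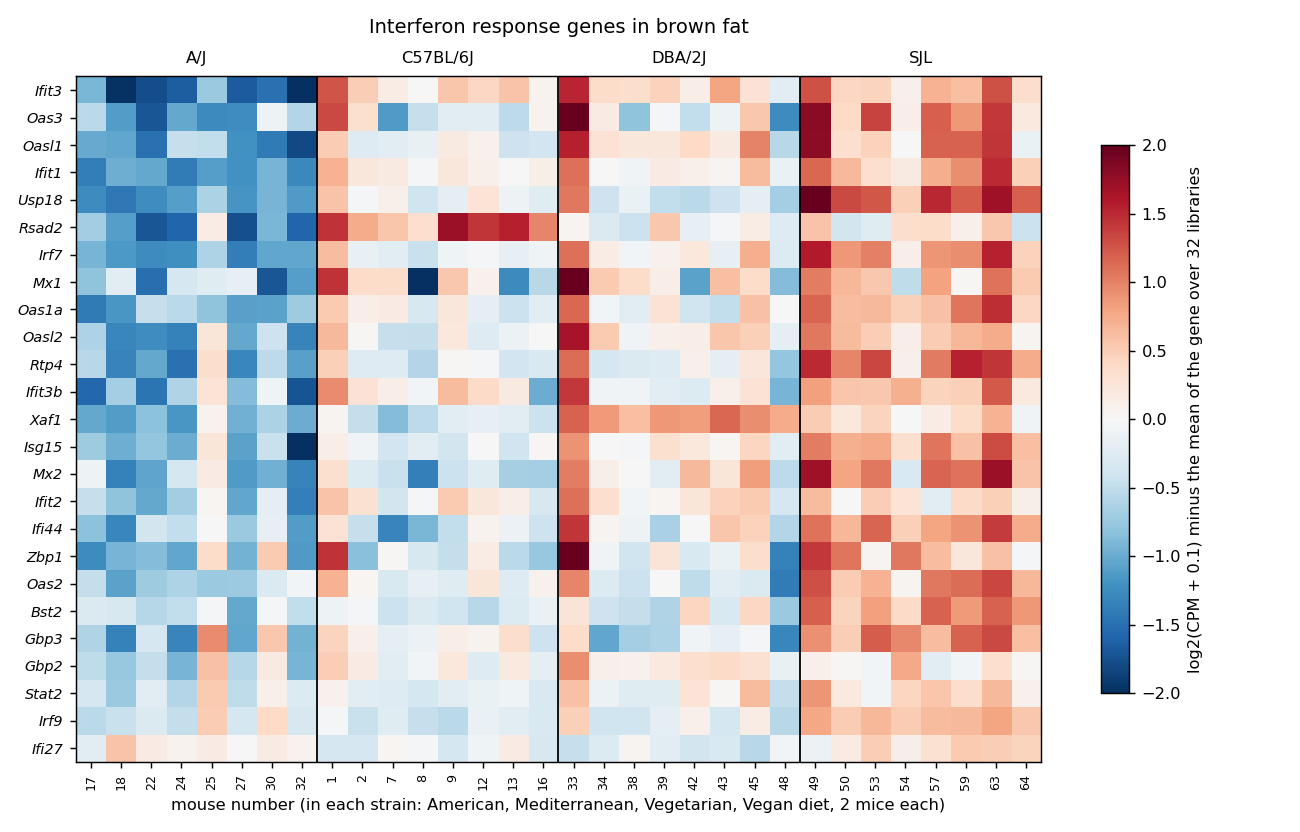
Heat map of 25 interferon response genes (rows) in the 32 brown fat libraries (columns, A/J at the left, then the other strains), each cell being log2(CPM + 0.1) minus the gene's mean, coloured to ±2. The A/J block is below the gene mean in most rows, and Irf7 is highest on average in SJL.

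The interferon list did not move this way in subcutaneous fat of largely the same mice, where 1 of its 26 members was higher, none lower (edgeR; median 0.11) and 7.69% of all genes were lower. In liver 13 of 26 were lower (median −0.38, against 13.6% of all genes), in quadriceps muscle 12 of 26 (median −0.79, against 5.79% lower and 5.47% higher of all genes) and in visceral fat 3 of 26 (median −0.19, against 4.82% lower and 7.55% higher). The difference between depots was tested gene by gene (A/J difference in brown fat minus A/J difference in subcutaneous fat). By that test 20 interferon genes were lower in brown fat and 1, Ifi27, was higher (median −1.20), against 11.6% of all genes lower and 6.49% higher. The count of lower members ranged from 14, without the subcutaneous library of A/J mouse 30, to 23, without the brown fat library of mouse 25, when any A/J library was left out.

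Immune and stromal transcripts were lower in A/J brown fat as well. Macrophage markers were lower in 12 of 14 genes (median −0.69, none higher), against 18.1% of all genes, and 5 of them were apart, against 4.68%, with Fcgr1, an Fc receptor, at −1.13, Lyz2, lysozyme, at −0.80 and Cd14, the endotoxin coreceptor, at −0.69. Their summed level was 165 to 255 CPM in A/J (median 235) and 176 to 704 CPM in the other strains (median 333), so the groups overlapped. Without DBA/2J 9 macrophage markers were lower (median −0.51). Complement genes were lower in 12 of 22 (median −0.60), against the same 18.1%, with C1qc at −0.68 and C3ar1, the C3a receptor, at −1.10. Without SJL 8 complement genes were lower (median −0.44), and with log2 Alb as a covariate 16 were (median −0.68). The complement list shares C1qa, C1qb and C1qc with the macrophage list, so their counts are not independent. In bulk tissue, fewer cells of a type and less RNA per cell cannot be told apart. The macrophage, complement and interferon lists were all lower in A/J, and the part of the macrophage markers in the interferon values was not tested.

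Antigen presentation genes of both classes were among those lower: of 24 MHC genes, 12 were lower and 2 higher (median −0.35), and 8 of the lower ones were apart, against 4.68% of all genes. H2-Ab1, a class II beta chain named after its values were seen, had 10.7, 22.0 and 35.0 CPM in A/J against 37.2, 53.7 and 77.2 CPM, with no overlap (−1.21, SE 0.156, adjusted p = 7.37e-07). H2-T22, a nonclassical class I gene, was at −1.35 (adjusted p = 4.03e-12). H2-Ea, the class II alpha chain that several mouse haplotypes do not express, was higher at 2.48 (SE 0.731, adjusted p = 0.00979). Its mean was 19.8 ± 6.36 CPM in A/J, 47.8 CPM in DBA/2J, 3.30 CPM in SJL and 1.48 CPM in C57BL/6J, so A/J lay between strains. The call was lost without C57BL/6J (0.99). MHC genes differ in sequence between strains and resemble each other, so their counts are uncertain. In visceral fat 9 of 24 MHC genes were lower in A/J too (median −0.47, against 4.82% of all genes). Subcutaneous fat had 7 of 24 lower (median −0.27, against 7.69%) and quadriceps muscle 7 of 24 (median −0.26, against 5.79%). Liver had 4 of 23 lower (median −0.06, against 13.6%). Either 1 or 2 were higher in each of these tissues. By the test of the depot difference 3 were lower in brown fat and 1 higher, against 11.6% and 6.49% of all genes.

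Matrix genes were lower in 15 of 24, with 1 higher (median −0.47), against 18.1% of all genes lower, and 4 were apart. Without DBA/2J 11 were lower (median −0.30). Col3a1 and Col1a1, fibrillar collagens named after their values were seen, had 194 to 365 CPM and 56.9 to 104 CPM in A/J against 248 to 909 CPM and 71.9 to 227 CPM in the other strains (−0.97 and −0.89). Timp1, a protease inhibitor, was at −1.67 (−1.07 without DBA/2J) and Lox, the collagen cross-linker, at −0.75, while Lamb1, a basement membrane laminin, was higher (0.54). Markers of fat cell precursors and fibroblasts were lower in 5 of 11 (median −0.68, and −0.29 without DBA/2J), with Pi16 at −1.02 and Cd34 at −0.81, and summed to 327 to 418 CPM in A/J and 361 to 791 CPM in the other strains. The precursor list shares Dcn, Lum and Fbn1 with the matrix list and Cd55 with the complement list. In subcutaneous fat the same lists went the other way: 8 matrix genes were higher and 1 lower, 5 precursor markers were higher and none lower, and 4 macrophage markers were higher and none lower, where 10.9% of all genes were higher. By the test of the depot difference 15 matrix, 10 precursor and 12 macrophage genes were lower in brown fat, against 11.6% of all genes. None of the 3 lists had a higher one, against 6.49% of all genes. Without the subcutaneous library of A/J mouse 24 the counts of lower genes were 12, 8 and 11.

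Markers of other cell types were called in smaller numbers. White fat markers were lower in 5 of 13 (median −0.50), among them Lep, leptin, with 7.66, 42.5 and 210 CPM in A/J against 24.0, 160 and 447 CPM (−1.51, adjusted p = 0.00852), and the list summed to 150 to 629 CPM in A/J and 217 to 1160 CPM in the others. Without DBA/2J, whose mean Lep was 351 CPM, the Lep call was lost (adjusted p = 0.161) and 2 markers were lower. Endothelial markers were lower in 4 of 10 (median −0.11), and 2 of 10 without mouse 22, mouse 27 or mouse 30; without DBA/2J 2 were lower and 2 higher. Nerve and Schwann cell markers were lower in 2 of 9, T and NK cell markers in 2 of 14 and B cell markers in 1 of 10, at or near the 18.1% of all genes. Without mouse 22, 4 T and NK markers were lower. The B cell marker was Blk (−2.03), and its call was lost in 10 of the 32 fits that left out 1 library. It was also lost without the libraries high in Cd79a (−1.27, adjusted p = 0.0869), without those high in Alb (adjusted p = 0.132), without SJL (adjusted p = 0.0839) and with Dbp as a covariate (adjusted p = 0.102). With log2 Cd79a as a covariate no B cell marker was called. Hemoglobin and other red cell genes were higher in 3 of 6 (median 0.72), with Hbb-bs at 0.82, and in 2 without DBA/2J (median 0.34). None of the 15 liver and 13 skeletal muscle markers was called by edgeR, DESeq2 or limma with strain and diet as terms, and 0 had an unadjusted p under 0.05 in edgeR. With log2 Ckm, itself a muscle transcript, as a covariate in edgeR, 7 of the 13 muscle markers were called lower. The liver and muscle sums were 33.3 to 15100 and 590 to 8420 CPM in A/J and 14.6 to 28800 and 509 to 11500 CPM in the other strains, and no marker in any of these lists was at 0 in every library of a group.

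Beyond the lists, the genes that stood furthest above the other strains were a mixed set. Slc28a1, a sodium-coupled pyrimidine nucleoside transporter (chromosome 7, 80764532-80820164, plus strand), had 0.103, 49.5 and 82.7 CPM in A/J against 0, 0.153 and 13.2 CPM in the other strains, a difference of 6.78 (SE 0.814, adjusted p = 4.42e-07). Of the 8 A/J libraries 7 lay above every other library, and mouse 27 was down at the level of the other strains; without it the difference was 7.12. The A/J difference was also called in subcutaneous fat (7.96), liver (7.40), muscle (5.68) and visceral fat (5.22). The long noncoding RNA AK157302 had 36.9, 42.1 and 46.4 CPM in A/J against 0.0935, 0.487 and 1.17 CPM (6.32, SE 0.194, adjusted p = 9.71e-20), with no overlap and a value of 5.52 in subcutaneous fat.

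Mfsd2a, which carries lysophosphatidylcholine with omega-3 fatty acids into cells, had 0.539, 20.9 and 130 CPM in A/J against 0.0513, 0.370 and 6.76 CPM (4.77, SE 0.861, adjusted p = 0.00011). It was below 6.76 CPM in mice 17, 18 and 25 and above every other strain's library in the remaining 5; without mouse 32 the difference was 3.99 (adjusted p = 0.000302). The highest values in the other strains, 6.76 and 4.79 CPM, were in mice 42 and 49, 2 of the libraries high in Alb, and mouse 57, also high in Alb, had 2.44 CPM. Mfsd2a was also read in liver, at a median of 34.5 CPM in A/J and 16.1 CPM in the other strains (without further scaling), and without the libraries high in Alb its brown fat difference was 5.80 (adjusted p = 1.66e-08). By diet it was 2.23 on American, 5.83 on Mediterranean, 2.08 on Vegetarian and 7.35 on Vegan food, and edgeR's test of equality gave an adjusted p = 0.381. Noct, nocturnin, a rhythmic phosphatase of NADPH, had 66.7, 183 and 335 CPM in A/J against 20.2, 51.1 and 99.9 CPM (1.89, SE 0.205, adjusted p = 6.48e-08). Mc5r, a melanocortin receptor coupled to cyclic AMP, had 5.54, 12.8 and 24.9 CPM against 0.487, 2.16 and 5.87 CPM (2.72, SE 0.229, adjusted p = 3.42e-10). Depp1, a starvation-induced autophagy regulator, was higher by 2.67 (SE 0.426, adjusted p = 2.43e-05), with mouse 25 far below the rest at 9.75 CPM, and by 2.88 without that mouse.

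Gbp2b, an interferon-gamma-induced GTPase outside the list above, was higher in A/J at 4.04 (adjusted p = 3.94e-07), with 10.8 to 28.9 CPM in A/J and 0 to 25.5 CPM in the other strains; close paralogs make its count uncertain. Ly6c2, a surface protein of monocytes and other cells, had 6.96, 7.89 and 10.1 CPM against 0.187, 0.621 and 5.70 CPM (3.47, adjusted p = 4.19e-09), also with close paralogs. Catspere2, a sperm calcium channel subunit gene, had a median of 4.84 CPM in A/J and 0.26 CPM in the other strains (adjusted p = 9.71e-11), AA465934 was at 2.60 and the zinc finger gene Zbed5 at 2.46. In these 3 genes and in Ly6c2 no A/J library overlapped the others.

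Of the genes furthest below, Sfxn1 was the one with the highest level in the other strains. It encodes sideroflexin 1, the mitochondrial serine transporter (chromosome 13, 54225709-54262375, plus strand). Sfxn1 had 13.2, 15.5 and 20.8 CPM in A/J against 71.4, 104 and 172 CPM in the other strains, with a wide gap between the groups (−2.78, SE 0.0947, adjusted p = 2.45e-19). The difference was −3.14 against C57BL/6J, −2.49 against DBA/2J and −2.71 against SJL. In the other tissues it was −0.25 in subcutaneous fat (adjusted p = 0.0544), 0.05 in liver (adjusted p = 0.708), −0.19 in muscle and −0.02 in visceral fat, and the depot difference from subcutaneous fat was −2.55 (adjusted p = 6.15e-22).

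Dysf, dysferlin, a membrane repair protein in which A/J carries a known retrotransposon insertion (chromosome 6, 83985345-84188042, plus strand), had 6.72, 7.49 and 11.5 CPM in A/J against 40.2, 53.4 and 71.5 CPM (−2.74, SE 0.0988, adjusted p = 9.28e-19). It was lower in every tissue: −1.92 in liver, −2.59 in muscle, −1.59 in subcutaneous and −1.63 in visceral fat. Ccl27a, a skin-homing chemokine, had 0.490, 0.766 and 1.44 CPM against 6.33, 9.95 and 18.4 CPM (−3.60, SE 0.181, adjusted p = 1.84e-15). Kcns3, a voltage-gated potassium channel subunit, had 0.331, 0.975 and 1.19 CPM against 4.85, 10.5 and 20.9 CPM (−3.43, SE 0.168, adjusted p = 1.05e-15). In all 4 genes the groups did not overlap.

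Gpx8, an endoplasmic reticulum peroxidase, had 2.17, 2.50 and 2.94 CPM against 3.43, 23.7 and 86.9 CPM, and the distance was small to SJL (−0.71) and large to C57BL/6J (−4.02). Among the remaining low genes were Apol10b (−3.80, and −4.23 without mouse 25), the noncoding Snhg11 (−3.43), Hephl1 of the ferroxidase family (−3.15), Isoc2b (−2.93), Tmem179 (−2.68), the potassium channel Kcnj15 (−2.33) and Lacc1, a macrophage purine enzyme (−2.28). Hephl1 and Tmem179 overlapped with the other strains; the other 5 did not.

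Genes with variants known to differ between inbred strains gave 4 higher and 6 lower of 24, near the 16.9% and 18.1% of all genes (median 0.04, and from −0.28 without C57BL/6J to 0.12 without SJL). Glo1, glyoxalase, in a segment duplicated in A/J and DBA/2J, averaged 189 ± 33.6 CPM in A/J, 137 CPM in DBA/2J, 70.3 CPM in SJL and 61.1 CPM in C57BL/6J (1.17, adjusted p = 2.45e-07). Naip5, whose A/J allele is permissive for Legionella, was at −1.41 (adjusted p = 8.16e-05) and was apart. Ahr, the aryl hydrocarbon receptor, was at −0.50. Mest, an imprinted gene tied to fat expansion, was at −1.07, a call lost without DBA/2J (−0.73, adjusted p = 0.0516). Glutathione and antioxidant genes gave 5 higher and 3 lower of 33 (median −0.04), no more than those shares, and 4 higher and 8 lower with limma on TPM. Gsta4 was at 0.53 (0.43 without mouse 18) and Gpx3 at 0.55; Gpx3 was at −0.04 without DBA/2J. Creatine and calcium cycling genes gave 1 higher and 2 lower of 17, also no more than those shares: Phospho1, which makes phosphate from phosphocholine, at 0.78 (0.60 without mouse 18), Ryr2, a calcium release channel, at −1.59 (adjusted p = 3.73e-08), and Atp2a3, a calcium pump, at −0.29. The Atp2a3 call was lost without mouse 17 (adjusted p = 0.0961), mouse 18 (0.0734), C57BL/6J (0.0884) or the libraries high in Alb (0.0602).

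The depot comparison named genes whose A/J difference was largest in brown fat relative to subcutaneous fat (4293 of 23697 genes, 18.1%, by edgeR's quasi-likelihood test). The subcutaneous library of A/J mouse 24 had 0.291 CPM of Hoxc10, a posterior patterning gene, against 8.09 to 27.2 CPM in the other 7, and without that library 3967 genes were called. Ucp1 in A/J subcutaneous fat ran from 9.18 to 1680 CPM. Mfsd2a (5.23, adjusted p = 0.000693), Ly6c2 (3.55, adjusted p = 1.89e-08), Dio2 (3.37, adjusted p = 3.72e-05), the noncoding AI854703 (3.87), Arhgef19 (2.81), Hspa1b (2.71) and Cdsn (2.52) were higher in this comparison. In subcutaneous fat alone Mfsd2a stood at −0.47 and Dio2 at −0.74, while Cdsn, a skin adhesion protein, was at −2.88 there and at −0.34 in brown fat. Lower were Gm45012 (−4.16), Ptgds, prostaglandin D synthase (−3.72), Scd3 (−3.43), Gm6951 (−3.34), Acp3 (−2.96) and Snhg11 (−2.85). Scd1 and Scd3, neighbouring desaturase genes, had opposite signs in the depots, −0.99 and −1.38 in brown fat and 1.15 and 2.03 in subcutaneous fat, and the depot difference of Scd1 was −2.16 (adjusted p = 5.67e-09).

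**Figure D4:**
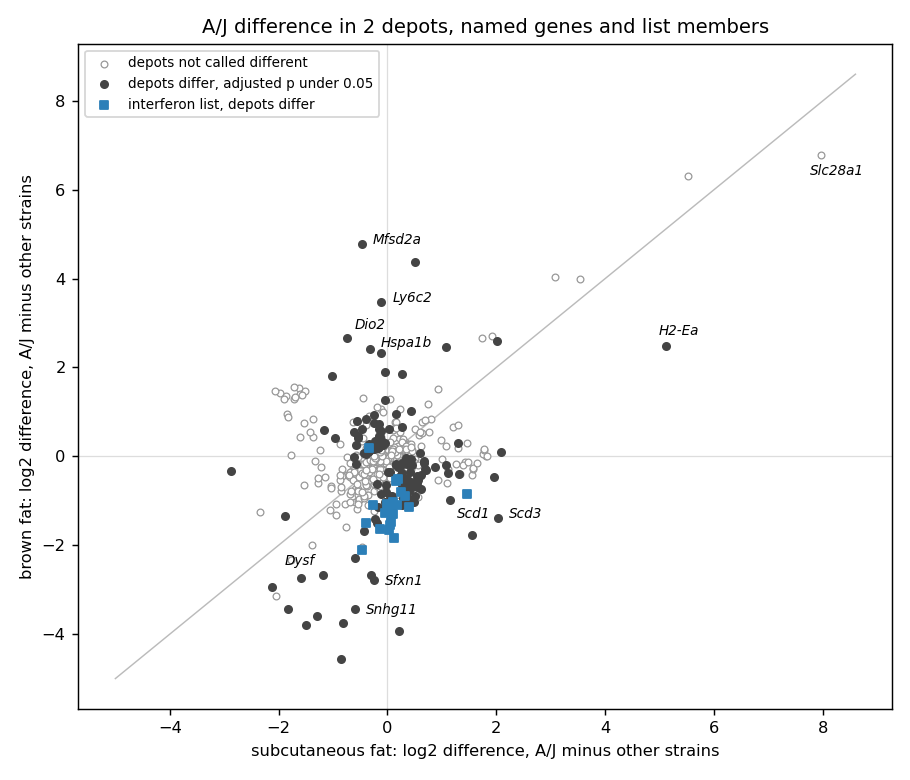
Log2 difference of A/J from the other strains in subcutaneous fat (x axis) and brown fat (y axis) for 535 genes of the lists and the named sets, with filled marks for the 168 whose difference between depots was called, drawn as squares where they belong to the interferon list. Slc28a1 and AK157302 are high in both depots, Sfxn1, Dio2 and Mfsd2a lie far from 0 in brown fat and within 1 of 0 in subcutaneous fat, and the interferon squares, Ifi27 apart, lie below 0 in brown fat, most of them near 0 in subcutaneous fat.

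Among the 19892 genes tested in both depots, 6969 were called in brown fat and 3680 in subcutaneous fat, and 1575 were called in both in the same direction, which is 22.6% and 42.8% of these. Over the genes tested in both tissues the shares were 30.4% and 39.6% with liver, 18.8% and 52.4% with visceral fat and 16.6% and 54.5% with muscle. The tissues come largely from the same animals.

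Whether the A/J difference depended on the diet could be tested with 2 mice per strain and diet. A single gene, Fbf1, passed by edgeR's quasi-likelihood test (0.00495% of genes tested, while 11.6% had an unadjusted p under 0.05; DESeq2 called 539). Fbf1, a protein of the cilium base, differed by 0.39, 0.34, 0.23 and 1.54 on American, Mediterranean, Vegetarian and Vegan food (edgeR, adjusted p = 0.0205). The call was lost in 13 of the 32 fits that left out 1 library, among them those without A/J mouse 22 (adjusted p = 0.0757), 24 (0.0911) or 32 (0.13), and with limma on TPM (adjusted p = 0.0826). Its levels were 13.2, 18.4 and 42.9 CPM in A/J against 9.91, 13.5 and 19.1 CPM. The next 3, Smad3, Pbxip1 and Prkag3, had adjusted p-values of 0.0509, 0.0965 and 0.0965. Without A/J mouse 17, the library with high Alb, 324 genes were called, and 759 were called without all libraries high in Alb.

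Clock genes were among the lists with many low p-values for diet dependence. Of 18 tested, 11 had an unadjusted p under 0.05 in edgeR's test, against 11.6% of all genes. So did 13 of 13 muscle, 6 of 9 nerve, 8 of 14 T and NK cell and 5 of 10 B cell markers. In creatine and calcium cycling 7 of 17 did, and in adrenergic signalling 6 of 18. Dbp, a transcription factor driven directly by the clock, stood at 3.57 and 3.71 CPM on American, 3.03 and 3.88 on Mediterranean, 21.9 and 16.7 on Vegetarian, and 20.7 and 7.83 on Vegan food in A/J. In C57BL/6J the order was reversed, with 35.5 and 12.8, 41.0 and 34.3, 4.21 and 2.96, and 3.74 and 11 CPM. Nr1d1, a clock repressor, had 63.8 and 67.6, 61.9 and 84.4, 150 and 128, and 143 and 128 CPM in A/J. In Dbp these values separate the American and Mediterranean from the Vegetarian and Vegan mice in A/J and in C57BL/6J. The hour of harvest is not in the labels used here, and its part in these values was not tested.

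Averaged over diets, 5 of 18 clock genes were higher in A/J and 2 lower (median 0.13), against 16.9% and 18.1% of all genes. The balance turned to 2 higher and 3 lower with limma on TPM (median 0.01) and without DBA/2J (median 0.04). Per1, a repressor that also answers to cyclic AMP and glucocorticoid, had 15.3, 66.7 and 122 CPM against 8.86, 19.9 and 47.0 CPM (1.52, SE 0.271, adjusted p = 9.13e-05). Cry2 was lower (−0.62, adjusted p = 2.18e-05) and Nfil3 higher (0.93). The count of higher genes was 3 without mouse 24 or mouse 27 and 2 without mouse 32. Early response and heat shock genes gave 7 higher and 1 lower of 17 (median 0.56), and 3 higher without DBA/2J, with Nr4a1, an orphan receptor induced by cyclic AMP, at 8.67, 45.2 and 122 CPM against 2.53, 12.5 and 104 CPM (1.85, SE 0.321, adjusted p = 6.7e-05). The higher count was 4 without mouse 18 and 4 without mouse 32, and the Hspa1b call (2.42, adjusted p = 0.0107) was lost without mouse 18 (1.86, adjusted p = 0.0855) and without DBA/2J (1.77, adjusted p = 0.11); it was 1.99 without mouse 32. With log2 Dbp as a further covariate, chosen after its values were seen, Dio2, Ppargc1a and the interferon list kept their direction and their calls, and the same 20 interferon genes were lower (median −1.05). A linear term for the level of Dbp is not a measure of the hour of harvest, whose part was not tested.

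**Figure D5:**
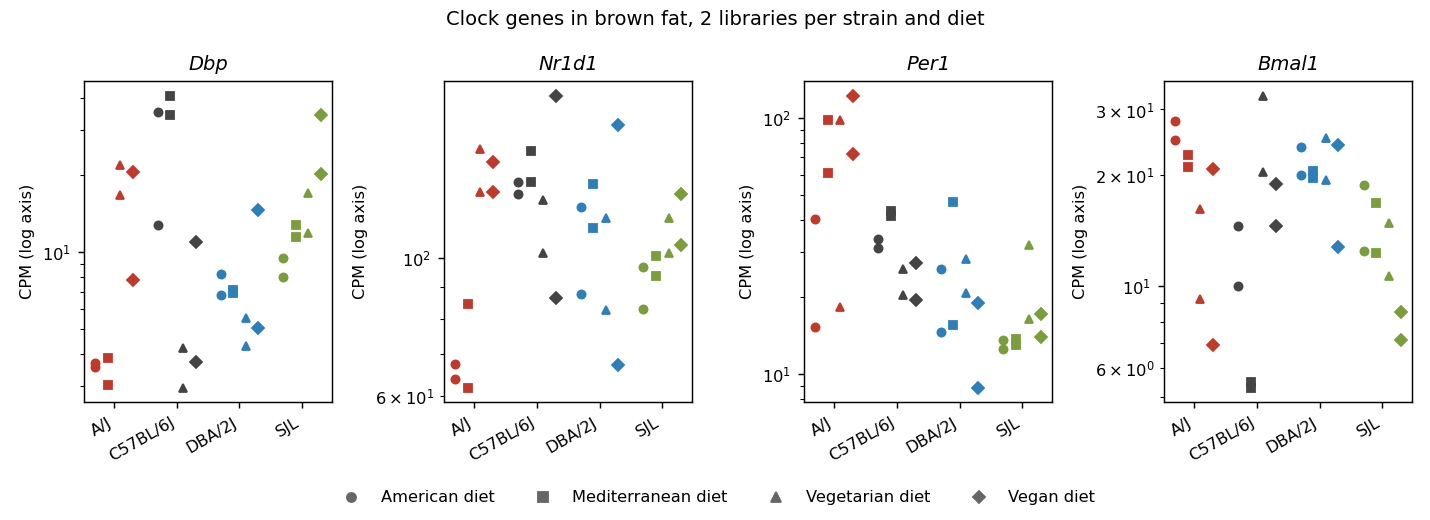
Level of Dbp, Nr1d1, Per1 and Bmal1 (CPM, log axis) in each brown fat library by strain, A/J at the left, and by diet, 1 point per mouse. In A/J, Dbp and Nr1d1 are higher on Vegetarian and Vegan than on American and Mediterranean food, and in C57BL/6J Dbp runs the other way.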

How the data were processed

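RNA-seq of polyadenylated RNA (stranded libraries, paired reads) was quantified by the authors. Per the labels, reads were checked with FastQC, trimmed with Trim Galore, aligned to GRCm39 with HISAT2 and counted with HTSeq with fractional assignment, with a laxer mismatch penalty for every strain but C57BL/6J. Versions of these tools are not stated in the labels. The authors deposited estimated counts that need not be whole (74.4% of non-zero values were whole within 1e-06) and a TPM table, used here for 1 alternative. The counts were rounded.

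Genes with enough counts in a strain and diet cell (filterByExpr of edgeR, minimum count 10, minimum total 15) were tested with edgeR 4.0.16 in R 4.3.3: TMM scaling, robust quasi-likelihood F-test, strain and diet as terms, A/J minus the mean of the other strains, Benjamini-Hochberg adjustment at 0.05 over all genes tested. Diet dependence was tested as a strain by diet interaction, and the depot difference in one model over brown and subcutaneous libraries. Mouse numbers in the titles pair the depots: 31 mice gave both, and the fit with mouse as a block is an alternative. DESeq2 1.42.0 and limma 3.58.1 on log2(TPM + 1) were others. The scripts were tested on simulated counts. Each p-value from a single tissue rests on the spread between mice. In the main fit, with strain and diet as additive terms, that spread also holds any strain difference that varies with diet. The main fit of the depot difference has no mouse term. It treats the brown and subcutaneous libraries of a mouse as independent, so its p-values mix spread between and within mice. Named genes are, among genes apart from each strain with a mean of at least 5 CPM in A/J or the other strains and no clone name, the 12 largest rises and 12 largest falls. Added were the 4 members of each list with the smallest adjusted p, the tested strain variants, the 4 genes with the smallest p for diet dependence, and the 6 largest rises and 6 largest falls of the depot difference. Any further list member named was picked with its values in view. Some genes of the lists are counted but not reported here by name. The members and gene lists were chosen with earlier results of these data known.

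Promoter sequences are from RefSeq (GRCm38.p6) and gene positions from GENCODE vM39 (GRCm39), which gave a symbol for 56236 of 56980 gene IDs.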

Additional observations from a re-analysis of the deposited data

Results flagged for a closer look

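The A/J difference was set against that in subcutaneous fat of the same study, gene by gene, and the difference between depots passed edgeR's quasi-likelihood test for these genes (log2, brown fat minus subcutaneous fat). Higher in brown fat were Mfsd2a (5.23), AI854703 (3.87), Ly6c2 (3.55), Dio2 (3.37), Arhgef19 (2.81), Hspa1b (2.71), Cdsn (2.52), Noct (1.91), Zbed5 (1.36) and AA465934 (0.57). Lower in brown fat were Gm45012 (−4.16), Ptgds (−3.72), Scd3 (−3.43), Gm6951 (−3.34), Acp3 (−2.96), Snhg11 (−2.85), Sfxn1 (−2.55), Gpx8 (−2.36), Apol10b (−2.31), Ccl27a (−2.31), Lacc1 (−1.70), Kcns3 (−1.62), Tmem179 (−1.52), Dysf (−1.17) and Isoc2b (−0.83). For Fbf1 the log2 difference between A/J and the other strains spanned 1.31 over the 4 diets, and the interaction passed edgeR's test with all libraries, but not in 13 of 32 fits without 1 library or with limma on TPM.

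Single A/J libraries lay far from the other 7 in some genes (CPM, by the gap to the nearest library relative to the range of the group). Chance marks about 1 in 20 groups in this way. Mouse 18 was far out in Atp5pb (785), Cox5b (811), Cox6c (908), Ndufs8 (449) and mt-Nd4 (31800), which serve the respiratory chain, and in Otop1 (431), Phospho1 (403), Gsta4 (143), Sparc (970), Sncg (75.5), Cdh23 (9.09) and Ppargc1b (32.5). Mouse 32 was far out in Ppargc1a (321), Hspa1b (219), Mfsd2a (130) and Vwf (20.4). Mouse 25 was far out in Xaf1 (12.5) and Apol10b (1.22), mouse 30 in Cyp51 (12.6), mouse 27 in Gm45012 (0.414) and mouse 22 in Acp3 (0.321). Without mouse 18 the Cox5b difference fell from 0.34 to 0.14 (edgeR, adjusted p = 0.189) and that of Ndufs8 from 0.29 to 0.15 (adjusted p = 0.137). Both calls were lost. The mt-Nd4 difference fell from 0.45 to 0.31 without that library and kept its call.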

How the results depend on the processing

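With 2 A/J libraries per diet, a diet taken alone gave 856 called genes (American), 1892 (Mediterranean), 310 (Vegetarian) and 1434 (Vegan), against 7077 over all diets; these fits use fewer samples. Leaving out 1 library gave 6290 to 7260 genes against the other strains, 4954 to 5698 against C57BL/6J, 6787 to 7629 against DBA/2J, 4743 to 5407 against SJL, and 3632 to 4492 for the depot difference. Diet dependence ran from 0 to 324 genes when 1 library was left out (324 without A/J mouse 17, 224 without SJL mouse 57; fits with none called had 2037 to 2549 at an unadjusted p under 0.05), and was 31 without the filter, 539 with DESeq2, 4 without libraries high in Cd79a, 759 without those high in Alb, and 0 with limma on TPM (2402 at an unadjusted p under 0.05); the cause was not tested. The depot difference with mouse number as the replicate block called 4290 genes, beside 4293 without it, and 3844 genes were called in both fits. With limma on log2(TPM + 1), 23.6% of the calls were higher in A/J, against 48.3% with edgeR; the shares were 22.7% and 45.8% against DBA/2J, 13.5% and 46.8% against SJL, and 14.1% and 35.8% for the depot difference, which was 47.8% without libraries high in Alb. Values that changed sign were Lpl at −0.08 and Lep at 0.10 (Vegetarian alone), Ndufs8 at −0.00 (Mediterranean), mt-Nd1 at −0.09 (Vegan), Tas1r3 at −0.02 and Egfl7 at 0.05 (American), and Gpx3 at −0.04 (without DBA/2J). Differences of named genes that moved by over 1.5-fold, with direction and call kept, included Mc5r (2.10) and Dio2 (2.05) without SJL, Gbp2b at 2.97 without C57BL/6J and 4.66 without SJL, Gpx8 at −1.97 and −3.62 in the same pair of fits, Tmem179 at −2.05 without C57BL/6J and −3.46 without DBA/2J, and Slc28a1 at 5.69 without C57BL/6J and 7.55 without libraries high in Cd79a. Genes near 1 CPM, such as Ifit1 in A/J, rest on few counts per library.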

Other observations

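In A/J mouse 27 Slc28a1 was low in each of the 5 tissues (CPM without further scaling): 0.105 in brown fat, 0 in liver, 0.563 in muscle, 0.193 in subcutaneous fat and 0.0881 in visceral fat. The other A/J mice had 25.4 to 83.8 CPM in brown fat, 14.6 to 50.8 in liver, 7.43 to 32.0 in muscle, 31.0 to 136 in subcutaneous fat and 10.2 to 33.2 in visceral fat. In brown fat of mouse 27, AK157302, Dysf and Sfxn1 lay within the range of the other A/J libraries.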
